A study of Mus musculus with 6 samples.

Results

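Regional identity of the intestine was followed through 9 genes among the 32219 genes of the deposited table. Of these, 7 encode transcription factors (Gata4, Gata5, Gata6, Pdx1, Onecut2, Cdx1 and Cdx2) and 2 encode brush border enzymes (Lct and Enpp7). The genes were taken from a list of symbols, chosen by how Gata4, Lct and other position-dependent genes stood in the library KO 1 against the other libraries of this series. Their levels in KO 1 against the others are therefore given as a description, with no test. Bulk RNA-seq was deposited for 6 mouse gut libraries, of which 3 carry the genotype label WT (WT 1, WT 2 and WT 3) and 3 the label KO (KO 1, KO 2 and KO 3). The labels list epithelium, immune cells and neurons of the gut wall as the material, and the series' design text names the duodenum. The design text relates the study to defects of intestinal development, and the comparison of KO with WT addresses which genes differ in that setting. No source used here says which gene the KO libraries lack and in which cells, nor the strain, sex, age or treatment of the mice. Nothing says that the 3 libraries of a genotype came from separate animals, so each p-value measures the spread between libraries, which may be technical.

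The small intestine is patterned along its length by transcription factors that stay active in the adult epithelium. GATA4 is known as a factor of the duodenal and jejunal epithelium that fades towards the ileum, while GATA6 and GATA5 are found further along it. PDX1 marks the duodenum, the pancreas and the antrum of the stomach. ONECUT2 is a cut-homeodomain factor of the proximal epithelium, and CDX1 and CDX2 are caudal-type homeodomain factors that specify intestine as against stomach. Lct encodes lactase, which splits milk sugar and is a textbook target of GATA and CDX factors. Enpp7 encodes alkaline sphingomyelinase, which digests sphingomyelin at the brush border. In bulk tissue, fewer cells of a type and less RNA per cell cannot be told apart.

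The promoters of the enzymes are shown because Lct and Enpp7 stood furthest above the other libraries in KO 1. RefSeq sequences for the GRCm38.p6 assembly, the assembly behind mm10, were at hand for 5 of the 9 genes (Gata5, Pdx1, Cdx2, Lct and Enpp7). Each sequence is the 250 bases before the annotated start, written 5′ to 3′ on the strand of the gene. The Lct promoter lies at chr1:128328319-128328568 on the minus strand, and the Enpp7 promoter at chr11:118987931-118988180 on the plus strand. Capitals mark the words searched on both strands, which for GATA factors were AGATAA or else AGATAG, together with TGATAA or else TGATAG, and for CDX factors TTTAT or else TTTAC.
Lct: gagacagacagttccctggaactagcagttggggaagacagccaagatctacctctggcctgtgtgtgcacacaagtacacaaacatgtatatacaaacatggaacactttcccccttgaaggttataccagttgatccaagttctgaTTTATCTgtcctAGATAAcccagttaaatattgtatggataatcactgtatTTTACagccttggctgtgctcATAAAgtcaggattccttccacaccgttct
Enpp7: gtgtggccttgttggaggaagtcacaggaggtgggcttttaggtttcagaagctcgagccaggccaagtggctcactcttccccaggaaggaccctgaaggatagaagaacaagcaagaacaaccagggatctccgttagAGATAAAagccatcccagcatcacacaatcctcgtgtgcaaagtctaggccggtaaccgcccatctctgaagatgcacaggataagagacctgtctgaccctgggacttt

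In the Lct promoter, GATA words stood at -101 to -96 and at -90 to -85, counted from -1 at the base before the start. It also held 3 CDX words, at -102 to -98, -51 to -47 and -30 to -26, the first of which shares bases with a GATA word. The Enpp7 promoter held 1 GATA word at -110 to -105, and its CDX word at -108 to -104 overlaps it. The promoters of Gata5, Pdx1 and Cdx2 held no GATA word in this window, but Pdx1 held 3 CDX words and Cdx2 held 1, so 4 of the 5 promoters had a CDX word. Of 32851 promoter windows of the same length, 26.5% held at least 1 GATA word and 51.2% at least 1 CDX word, so both kinds of word are common. These matches describe letters and are not evidence of binding.

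Coverage differed between libraries and decides what can be said of each gene. The library KO 1 held values on chromosomes 1 and 10 to 18 and on the start of 19, and on chromosomes 2 to 9, X and M it was at 0 for every gene that averaged above 1 in the other 5 libraries. Its zeros there and on the rest of 19 were treated as missing. Where it held values they were higher by a median factor of 2.12, and they were divided by this factor; such values are called rescaled. KO 1 covered Gata4, Gata6, Onecut2, Cdx1, Lct and Enpp7, which are 6 of the 9, but not Gata5, Pdx1 and Cdx2. All levels are log2(abundance + 1), with base 2 assumed and the abundance unit not stated, so each gene is compared only with itself across libraries. Depth is unknown, since the table holds no counts.

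Of the transcription factors that KO 1 covers (Gata4, Gata6, Onecut2 and Cdx1), Gata4 stood furthest above the other libraries. The gene (chromosome 14, 63198922 to 63271692, minus strand) has up to 7 exons in 1 transcript of the GENCODE annotation. Its levels were 0.43, 0.54 and 0.63 in WT 1, WT 2 and WT 3, and 0.54 and 0.50 in KO 2 and KO 3. KO 1 stood at 6.26 as deposited and at 5.19 rescaled. The other 5 libraries lay within 0.20 of each other, and KO 1 was 4.66 above their mean on the log2(abundance + 1) scale. With the added 1 removed, the linear abundance was 35.6 in rescaled KO 1 against a mean of 0.446 in the other 5, a level so near 0 that their ratio is imprecise. The nearest expressed neighbours on either side did not share this: Fdft1 was at 4.06 in rescaled KO 1 against 4.43 to 4.83 elsewhere, and Blk at 0.15 against 0.25 to 2.27.

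Gata6 (chromosome 18, 11052064 to 11085635, plus strand), the GATA factor found along the whole small intestine, was nearly level. Its values were 4.83, 4.70 and 4.81 across the WT libraries, 4.90 and 4.98 in KO 2 and KO 3, and 5.10 in rescaled KO 1. Rescaled KO 1 thus lay 0.12 above the highest of the other 5 libraries, and with KO 1 rescaled on epithelial genes instead it fell inside their range, at 4.93. Gata6 shares exon bases with 1010001N08Rik on the opposite strand, which stood at 2.85 to 3.16 in the other 5 libraries and at 3.23 in rescaled KO 1. The library kit named in the labels keeps strand, but no strand setting of the counting is stated, so reads of this pair cannot be told apart.

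Gata5 (chromosome 2, 180325133 to 180334699, minus strand) was present in every library that covers it. It stood at 4.61, 4.41 and 4.50 across the WT libraries and at 4.64 and 4.43 in KO 2 and KO 3. WT and KO overlapped, with the lowest and highest libraries 0.23 apart. Gata5os, on the opposite strand and sharing exon bases with Gata5, stood at 1.16 to 1.63 in the same 5 libraries. Of the rest of the family and its cofactors, Gata3 of lymphocytes was low (0.42 to 0.85) and the cofactor gene Zfpm1 stood at 2.66 to 3.19. Zfpm2, a GATA cofactor of mesenchyme, was at 1.42 to 1.68 in these libraries and at 0.58 in rescaled KO 1.

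Pdx1 (chromosome 5, 147269959 to 147275848, plus strand) was at or next to 0 in every library that covers it. It was listed at 0 in WT 1 and WT 2, at 0.08 in WT 3, and at 0.07 in both KO 2 and KO 3. For this defining duodenal factor KO 1 holds no value, so the 1 library with a high Gata4 level cannot be checked by Pdx1. Onecut2 (chromosome 18, 64340020 to 64400987, plus strand) was almost as low, at 0.12, 0.42 and 0.12 across the WT libraries, 0.15 and 0.12 in KO 2 and KO 3, and 0.55 in rescaled KO 1. KO 1 was the highest and WT 2 the next, and all 6 values lay in the low range where 1 added to the abundance flattens differences. Of the other Onecut genes, Onecut3 stayed at or under 0.16 in all 6 libraries, and Onecut1 was listed at 0 in the 5 libraries that cover it.

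Of the pan-intestinal caudal factors, Cdx1 showed no rise in KO 1 like that of Gata4, and KO 1 holds no value for Cdx2. Cdx1 (chromosome 18, 61018862 to 61036199, minus strand) stood at 6.18, 6.07 and 6.30 across the WT libraries and at 6.24 and 6.14 in KO 2 and KO 3. Rescaled KO 1, at 5.86, was the lowest library, 0.21 under the next; as deposited it was the highest, at 6.94, so its place depends on the scaling. Cdx2 (chromosome 5, 147300805 to 147307270, minus strand), the caudal factor without which the epithelium takes on stomach features, stood at 6.07, 5.79 and 6.07 across the WT libraries and at 5.94 and 6.08 in KO 2 and KO 3. WT 2 was the lowest for Cdx1, Cdx2, Gata5 and Gata6 among the 5 libraries without KO 1. It also had the lowest summed linear level of 13 epithelial genes, 2328 against 2540 to 2856 in the other 4, and the highest sum of 8 fibroblast genes, 825 against 571 to 685. Immune genes summed to 132.7 in WT 2 and 169.5 in KO 2, against 55.5 to 64.1 in the other 3. The part of these in the factor levels was not tested.

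The enzymes carried the widest difference. Lct (chromosome 1, 128284756 to 128328318, minus strand, with up to 17 exons) stood at 1.08, 2.01 and 1.83 across the WT libraries and at 1.17 and 1.81 in KO 2 and KO 3. KO 1 stood at 8.13 as deposited and 7.05 rescaled, 5.47 above the mean of the other 5. Among those 5, WT 1 and KO 2 were low and the other 3 higher, so the spread of 0.94 ran across both genotypes. The adjacent genes were level, with Ubxn4 at 4.16 in rescaled KO 1 against 3.90 to 4.12 and the replication gene Mcm6 at 4.17 against 4.05 to 4.53.

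Enpp7 (chromosome 11, 118988188 to 118993221, plus strand) stood at 2.87, 3.48 and 2.81 across the WT libraries and at 3.06 and 3.79 in KO 2 and KO 3. KO 1 stood at 9.55 as deposited and 8.46 rescaled, 5.26 above the mean of the other 5. KO 3 was the highest of those 5 and WT 2 the next, so WT and KO overlapped. Its neighbours Engase (2.82 in rescaled KO 1 against 2.51 to 3.09) and Cbx2 (1.48 against 1.55 to 1.88) did not exceed the other libraries in KO 1.

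**Figure D1:**
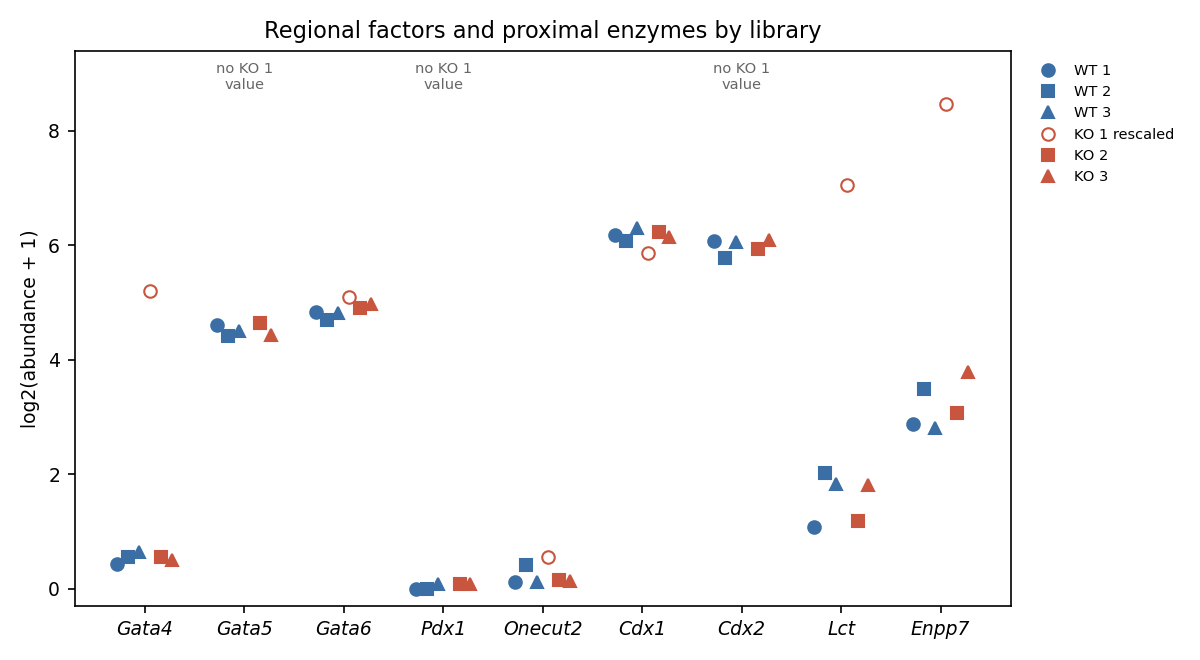
Levels of the 9 genes in each library on the log2(abundance + 1) scale, with WT in blue, KO in red, and the open circle for KO 1 after rescaling; Gata5, Pdx1 and Cdx2 have no KO 1 value. KO 1 stands at 5.19 for Gata4, 7.05 for Lct and 8.46 for Enpp7, far above the other 5 libraries, and lies close to them for Gata6, Onecut2 and Cdx1.

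Across all genes that KO 1 covers, these 3 took the first places. Of 6644 covered genes above 1 on average in the other 5 libraries or in rescaled KO 1, Lct had the largest excess in KO 1, Enpp7 the second and Gata4 the third; Gata4 passed that filter only through KO 1, and Onecut2 did not pass it. At least 2 log2 units above the highest of the other 5 libraries were 17 genes, or 0.256%, and Gata4, Lct and Enpp7 were 3 of them; the genes were chosen on this contrast, so nothing is read from that share. Over the 6644 genes the median difference was -0.10, and the middle of the distribution ran from -0.41 to 0.14 between its quartiles. By the root mean square difference of centred levels over the 6 libraries, among 6206 genes, the genes most like Gata4 were Dnase1 (0.30), Enpp7 (0.42) and Lct (0.44). For Lct they were Enpp7 (0.34), Gata4 (0.44) and Dnase1 (0.64), and for Enpp7 they were Lct (0.34), Gata4 (0.42) and Dnase1 (0.55). Dnase1, which encodes a secreted nuclease, stood at 2.11 to 2.63 in the other 5 libraries and at 6.34 in rescaled KO 1. The likeness rests on the single library KO 1, the contrast on which the regional genes were chosen. Gata4 was among the 6206 genes only through its KO 1 level. By this measure the genes with the largest excess in KO 1 lie close to each other, so nothing is read from the likeness.

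**Figure D2:**
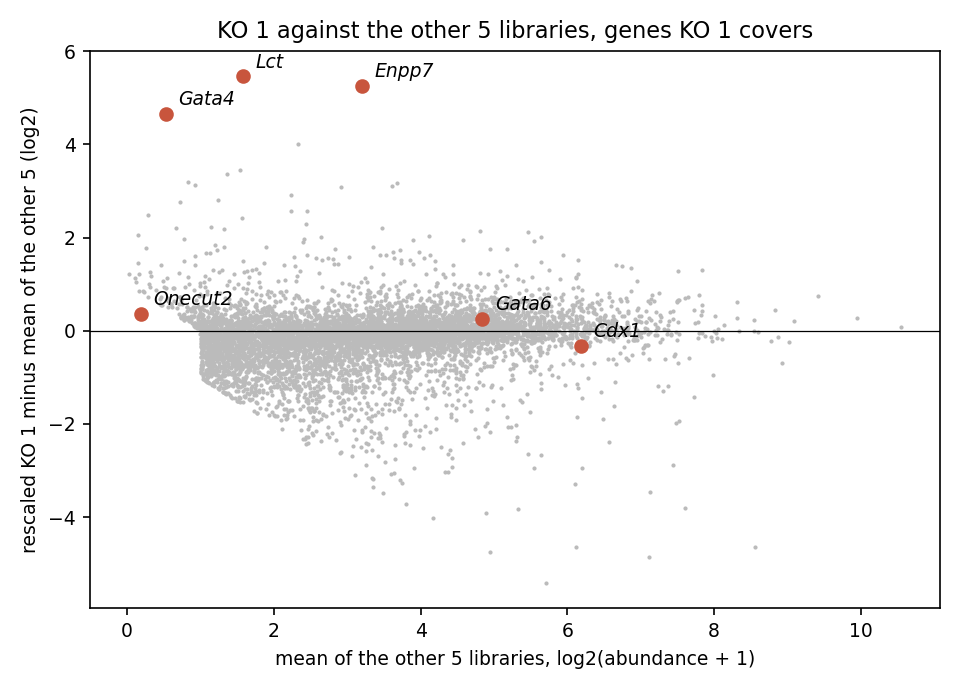
Each grey point is 1 gene that KO 1 covers, with the mean of the other 5 libraries on the x axis and rescaled KO 1 minus that mean on the y axis, both on the log2 scale, and red points are the 6 covered genes of the regional set. Lct (5.47), Enpp7 (5.26) and Gata4 (4.66) are the highest points, while Gata6, Onecut2 and Cdx1 lie near 0.

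Other genes known for the proximal small intestine mostly lay on the same side in KO 1, among those it covers. Without the regional genes themselves, 7 genes of the proximal list were covered and above 1, on average elsewhere or in rescaled KO 1. Of these, 6 exceeded the highest of the other 5 libraries, with a median difference of 1.50. Over all 6644 genes 22.6% did so. Gip and Hsd17b6 (2.74 in rescaled KO 1 against 0.62 to 0.94) passed that filter only through KO 1. The filter thus favoured their place above the others, and the count is not read as a result. Gip, the hormone of duodenal and jejunal K cells, stood at 4.02 in rescaled KO 1 against 0.27 to 1.22, and Creb3l3, a transcription factor of lipid handling, at 6.01 against 2.20 to 4.16. The exception, named after its value was seen, was the iron exporter gene Slc40a1, at 5.15 against 6.30 to 6.67. Of 7 covered genes of the distal list, 4 lay under the lowest of the other 5 libraries, with a median difference of -0.49, where 41.4% of all covered genes did so. Fabp6, the ileal bile acid binding protein, was the 1 distal gene at least 2 units under the others, at 3.91 against 8.16 to 8.76; 0.903% of all covered genes were. Both lists were written with results for some of these genes known, so they are no independent evidence of direction.

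Among 7 other covered genes of the Enpp and sphingomyelin list, 2 exceeded the other libraries and 4 lay under them, with a median difference of -0.37; over all covered genes 22.6% and 41.4% did, so these few counts show nothing particular to the family. Enpp3, which encodes a nucleotide pyrophosphatase of the brush border, stood at 5.16 in rescaled KO 1 against 2.08 to 2.41, whereas Enpp2, which encodes the lysophospholipase autotaxin, stood at 1.41 against 2.14 to 2.84. The 4 other brush border glycosidases of the list lie on chromosomes that KO 1 does not cover. Among them were sucrase-isomaltase (Sis, 7.43 to 8.12) and trehalase (Treh, 2.61 to 3.07). Of 28 transcription factors of the intestinal network, 12 were covered and above 1, of which 2 exceeded the other libraries and 5 lay under them, with a median difference of -0.13, which is near the shares of 22.6% and 41.4% and the median of -0.10 over all covered genes. Hand1, a mesenchymal factor of the gut wall, was listed at 0 in KO 1 against 2.85 to 3.39.

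Markers of other cell types were set beside the same shares over all covered genes, 22.6% above and 41.4% under the other 5 libraries. All 6 covered smooth muscle genes lay under the other 5 libraries, with a median difference of -2.81 and a summed linear level of 94.4 against 646.8 to 862.1. All 6 covered fibroblast genes did so too (median -1.92, 158.7 against 456.8 to 656.5). Of 9 covered epithelial genes, 5 exceeded the other libraries and 2 lay under them (median 0.18, 2101 against 1484 to 1875), and all 4 covered enterocyte genes exceeded them (median 1.45), among them Alpi, the brush border alkaline phosphatase, at 7.57 against 5.66 to 6.49. With KO 1 rescaled on the 9 epithelial genes, Gata4 was 4.49, Lct 5.29 and Enpp7 5.09 above the mean of the other 5. Pdx1 is also a pancreatic factor. Of 21 pancreas genes, 7 were listed at 0 in all 5 other libraries, among them the trypsinogen genes Prss1 and Prss2 (named after their values were seen), and the covered list summed to 14.8 in rescaled KO 1 against 21.8 to 31.6. Colipase (Clps), which other gut cells can express, made up most of that sum, at 3.64 in rescaled KO 1 against 4.25 to 4.88. Of 15 genes of the stomach and Brunner gland list, 5 were listed at 0 in all 5 other libraries (Gkn1, Gkn2, Tff1, Gast and Barx1) and 10 were above 0 in at least 1, up to 1.21 for the gland mucin gene Muc6; these genes are named after their values were seen. The part of this makeup in the regional genes' levels was not tested.

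**Figure D3:**
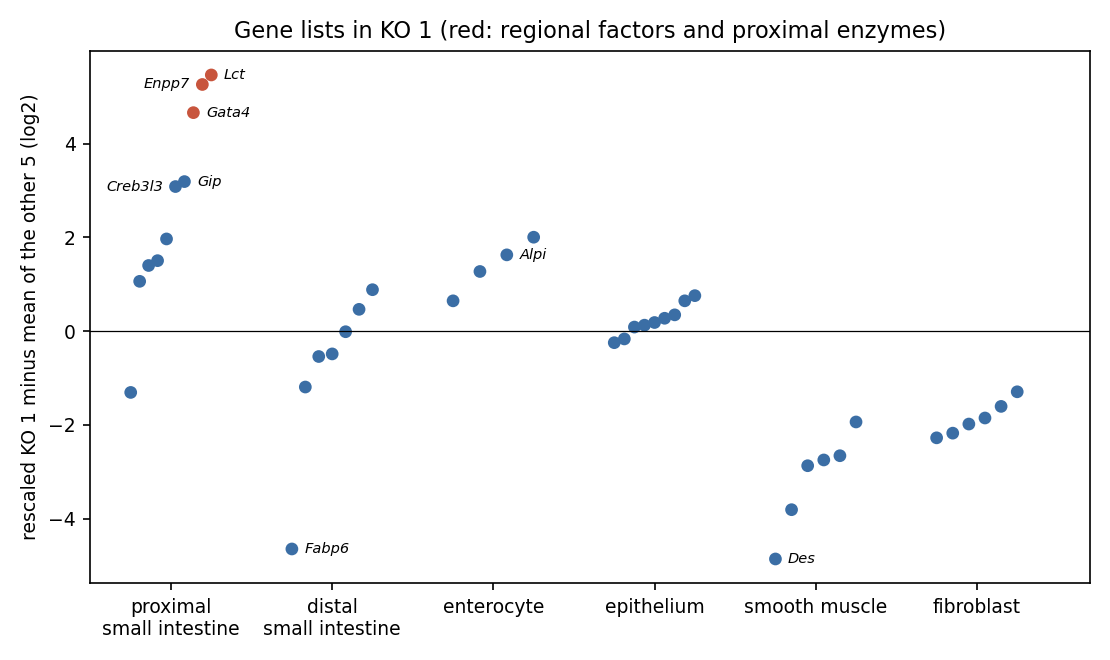
Rescaled KO 1 minus the mean of the other 5 libraries (y axis, log2) for each covered gene above 1 in 6 gene lists (x axis), with Gata4, Lct and Enpp7 in red and other genes in blue. Proximal and enterocyte genes lie mostly above 0 and smooth muscle (median -2.81) and fibroblast genes (median -1.92) below it. Gata4, Gip and Hsd17b6 are shown only because rescaled KO 1 was above 1.

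The labelled tissue was set beside these markers. In WT 1, WT 2, WT 3, KO 2 and KO 3, the duodenal factor Pdx1 was at or under 0.08, so this defining marker was absent or nearly so. All 26 genes of the proximal list, Pdx1 included, had a value above 0 in at least 3 of these 5 libraries. Low among them were Gata4 (0.43 to 0.63), Gip (0.27 to 1.22) and Lct (1.08 to 2.01). High were the cholesterol transporter gene Npc1l1 (6.53 to 7.14) and Dgat1 (6.77 to 7.12), which encodes an enzyme of triglyceride synthesis. All 20 genes of the distal list were above 0 in each of the 5, among them Fam151a (0.04 to 0.68) and Fabp6 (8.16 to 8.76). Npc1l1, Dgat1 and Fam151a are named after their values were seen. A value above 0 says little, and levels are not compared between genes here. The lists therefore do not settle the position of these libraries along the gut. Gene by gene, these 5 libraries stood under rescaled KO 1 for Gata4, Lct, Enpp7 and Gip and above it for Fabp6. Slc40a1 of the proximal list and Amn of the distal list went the other way. High Gata4, Lct and Enpp7 and lower Fabp6 and smooth muscle genes occur together in 1 KO library. KO 2 and KO 3, with the same genotype label, stood near the WT libraries for these genes. In KO 2 and KO 3, Gata4 was at 0.54 and 0.50, Fabp6 at 8.71 and 8.73, and the muscle gene Des at 6.86 and 7.37. What sets KO 1 apart was not tested.

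Whether genotype moved the regional genes was tested in the 5 libraries without KO 1 by limma, which borrows variance across genes, with Benjamini-Hochberg adjustment over 22047 genes. None of the 9 genes passed an adjusted p of 0.05, and none had an unadjusted p under 0.05; all had an adjusted p of 0.99998. Over all genes 1 passed, Gm49380, which is 0.00454%, and 491 had an unadjusted p under 0.05. All 9 regional genes had passed the filter, 6 with a fold above 0 and 3 below. Groups did not overlap for 1 of the 9, Gata6, where 13.6% of all genes showed such a gap.

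The intervals set how large a change could have been missed. Gata6, higher in both KO libraries than in any WT library, was on average 4.94 ± 0.06 in KO 2 and KO 3 (SD, n = 2), against a WT mean of 4.78 ± 0.07 (SD, n = 3). Its log2 fold was 0.16 ± 0.09 (SE), with a 95% interval from -0.05 to 0.37. For Cdx1 the fold was 0.00 ± 0.10 (SE; interval -0.24 to 0.25) and for Cdx2 0.04 ± 0.12 (-0.26 to 0.33). Gata5 had a fold of 0.03 ± 0.11 (SE, interval -0.23 to 0.29), within the spread of the libraries. For Gata4 the fold was -0.01 ± 0.09 (SE, interval -0.22 to 0.20). Gata4 was so low in these libraries that the added 1 narrows this interval. With a constant of 0.1 its SE was 0.29, so a change in its abundance is less well bounded than for Gata5. Pdx1 (0.04 ± 0.04, SE) and Onecut2 (-0.08 ± 0.10, SE) were too low for a fold to be read. The enzymes were less well determined than Gata5, Gata6, Cdx1 and Cdx2. Lct had a fold of -0.15 ± 0.34 (SE, interval -0.97 to 0.67) and Enpp7 one of 0.37 ± 0.29 (SE, interval -0.33 to 1.08). Single libraries moved both: the Enpp7 fold was 0.010 without KO 3, 0.73 without KO 2 and 0.59 without WT 2, and the Lct fold ran from -0.47 to 0.17 over the left-out libraries.

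KO 1 decides the size of the genotype folds for the high genes. With KO 1 rescaled and counted as missing where it holds no values, the limma folds were 1.55 ± 1.22 (SE) for Gata4, 1.70 ± 1.47 for Lct and 2.05 ± 1.33 for Enpp7, all with an adjusted p of 0.99994. In each of these the KO mean joins 1 high library with 2 that lie at the WT level. Gata6 moved to 0.21 ± 0.08 and Cdx1 to -0.10 ± 0.12 in that fit. The unadjusted p of Gata6 was 0.0409 there, and its adjusted p by limma was 0.99994.

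**Figure D4:**
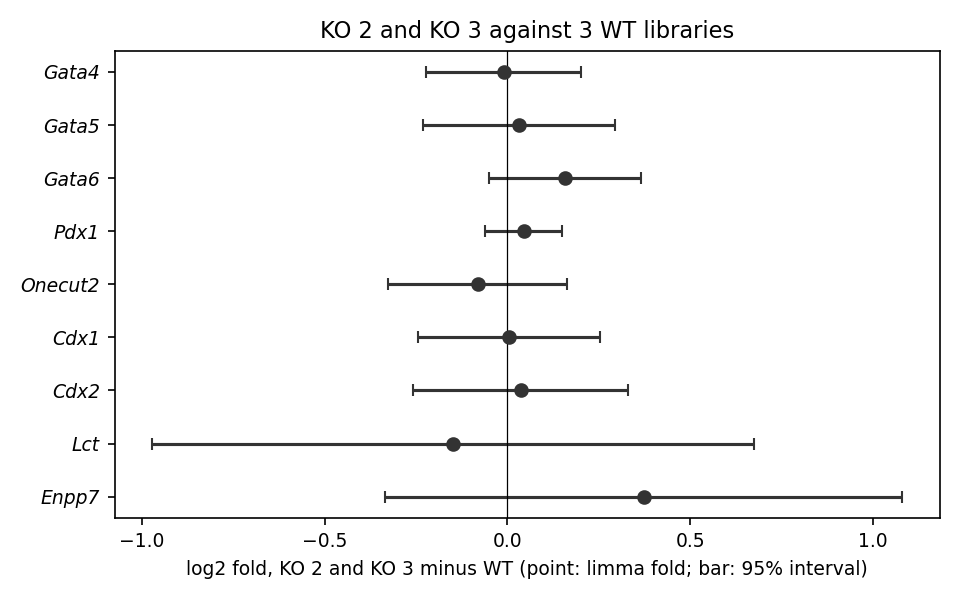
Log2 fold of KO 2 and KO 3 against the 3 WT libraries (x axis) for each of the 9 genes (y axis), with points for the limma fold and bars for its 95% interval. Every interval includes 0, the narrowest belongs to Pdx1 and the widest to Lct (-0.97 to 0.67). Pdx1, Onecut2 and Gata4 lie near 0 in these libraries, where the added 1 narrows the intervals.

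No other gene of the regional lists passed the same test between genotypes in these 5 libraries. Of 21 proximal genes other than the regional set, 15 had a fold above 0 and 6 below (median 0.09), 0 passed by limma over all genes, and 1 had an unadjusted p under 0.05; over all 22047 genes 13466 were above 0 and the median was 0.03. That 1 was Gip, at 0.27, 0.77 and 0.73 across the WT libraries and 1.14 and 1.22 in KO 2 and KO 3 (log2 fold 0.59 ± 0.17, SE; adjusted p = 0.99998). Of 20 distal genes, 17 were above 0 and 3 below (median 0.06), and 0 passed, with 0 at an unadjusted p under 0.05. Fabp6 had a fold of 0.26 ± 0.20 (SE). In the Enpp and sphingomyelin list without Enpp7, 0 of 11 passed and 1 had an unadjusted p under 0.05, the neutral ceramidase gene Asah2, at 4.04, 4.01 and 3.89 across the WT libraries and 4.23 and 4.59 in KO 2 and KO 3 (fold 0.43 ± 0.13, SE; adjusted p = 0.99998). Of the 27 network factors tested, 18 were above 0 and 9 below (median 0.05), and 0 passed, also with 0 at an unadjusted p under 0.05. Creb3l3 had a fold of 0.74 ± 0.47 (SE) that rested on KO 3, at 4.16, with KO 2 at 2.57 inside the WT range of 2.20 to 2.90.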

How the data were processed

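The 9 genes and all gene lists were chosen with earlier results of these data known. The authors deposited 1 table of log values, which were read as log2(abundance + 1). The submitters' processing notes name the build mm10, and polyadenylated RNA was selected, per the labels' protocols. The aligner, counting tool, strand setting, abundance unit, log base and constant are not stated. Of 32245 rows, 26 held a date instead of a symbol and were left out. GENCODE vM21 placed 31398 symbols. KO 1 was divided on the linear scale by 2.12, the median, over 2160 covered genes at 4 or more, of its ratio to their average level elsewhere.

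KO 2 and KO 3 were compared with the 3 WT libraries by limma 3.58.1 (R 4.3.3) with a variance trend, 2-sided, keeping genes with a value above 0 in 3 or more of these 5, with Benjamini-Hochberg adjustment; the script was tested on simulated data first. All 9 genes are named; from each list described, up to 4 others could be named, the 2 with the smallest p and the 2 with the largest difference in KO 1. Members ranging over more than 1 unit were matched to the 3 genes nearest in profile. Motifs were searched with Python 3.11.15. Alternatives covered scaling, filters, constants, log base, variance model, the replicate block and left-out libraries.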

Additional observations from a re-analysis of the deposited data

How the results depend on the processing

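For KO against WT without KO 1, 1 gene passed by limma, and 0 passed with the replicate block, no filter, a mean of at least 1, a constant of 0.1, all 6 libraries as deposited, or any 1 of the 5 libraries left out (0 to 0); the cause was not tested. None of the 9 regional genes passed under any setting (adjusted p 0.718 to 0.99999). The replicate numbers are not said to pair libraries; deviations correlated at 0.28 for number 2 and 0.33 for number 3, and the replicate block changed no call for the 9 genes. Folds near 0 changed sign. Gata4 turned to 1.90 with all 6 libraries as deposited and 1.55 with KO 1 rescaled and missing (-0.064 to 0.038 over left-out libraries). Gata5 turned to -0.025 with median centring and -1.48 with all 6 as deposited (-0.074 to 0.14). Pdx1 turned to -0.012 with centring. Onecut2 turned to 0.20 with all 6 and 0.058 with KO 1 rescaled (-0.13 to 0.019). Cdx1 turned to -0.053 with centring, to -0.016 under quantile normalization, and to -0.10 with KO 1 rescaled (-0.052 to 0.064). Cdx2 turned to -0.020 with centring and -1.97 with all 6 (-0.058 to 0.11). Lct turned to 2.06 with all 6 and 1.70 with KO 1 rescaled (-0.47 to 0.17). With all 6, the zeros of KO 1 enter for Gata5 and Cdx2.

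For KO 1 minus the mean of the other 5, KO 1 as deposited gave 5.73 for Gata4, 1.32 for Gata6, 0.81 for Onecut2, 6.55 for Lct and 6.35 for Enpp7, and turned Cdx1 from -0.32 to 0.75. Rescaling on epithelial genes gave 4.49 for Gata4, 0.088 for Gata6 and -0.50 for Cdx1. Log base e gave 6.74 for Gata4, 0.38 for Gata6, -0.45 for Cdx1, 7.91 for Lct and 7.62 for Enpp7. A constant of 0.1 gave 6.04 for Gata4, 1.33 for Onecut2 and 6.01 for Lct. Gata4, Lct and Enpp7 stayed above the highest of the other 5 in all of these. Depth is unknown, and levels near 0 (Pdx1, Onecut2, Gata4 outside KO 1) limit what their folds can show.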
